A study of Drosophila melanogaster with 2 samples.

Results

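The regions described here were 2596 candidate binding regions of the zinc finger protein CG3065 that lay at gene promoters. They were found again in both replicates, but lay outside the authors' list set by the irreproducible discovery rate (IDR). The IDR is a statistic of how alike replicates rank peaks. With replicates pooled, the 2451 IDR peaks were those of highest signal, so the members ranked below them in pooled signal. IDR peaks at promoters reached ranks of 19389 in replicate 1 and 23523 in replicate 3. The members were chosen by measured values and by position. A region is a peak of the authors' relaxed list from both replicates pooled that overlapped no IDR peak, had a peak summit within 200 bp in the relaxed list of each replicate, and had its own summit no farther than 500 bp from a protein-coding start site. They made up 8.65% of the 30000 pooled peaks and 42.7% of the 6082 sub-threshold peaks at promoters, and are called members below. They were set against 1236 IDR peaks at promoters, against 3486 unreproduced sub-threshold promoter peaks, which lacked a nearby summit in at least 1 replicate, and against 6953 reproduced sub-threshold peaks away from promoters.

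The study had 1 group, chromatin of whole embryos of Drosophila melanogaster, 0 to 16 h old and of both sexes pooled, from a transgenic line that stably expressed CG3065 fused to GFP at its C-terminus. Chromatin was precipitated with an anti-GFP antibody in 2 biological replicates, numbered 1 and 3. Whole embryos mix many tissues and stages, so a weak summit in all cells and a strong one in few cannot be told apart. The files hold peaks and no read counts, so the depth of the libraries is unknown, and control libraries were not analysed here.

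CG3065 belongs to the Sp/KLF family, whose C-terminal zinc fingers bind GC-rich and CACCC-type boxes in DNA. Fly promoters of broadly expressed genes are known for another set of short core-promoter elements, among them the DRE, bound by DREF and BEAF-32, motif 1, bound by M1BP, and the elements known as Ohler motifs 6 and 7. Promoters of tissue-specific genes more often carry a TATA box, which TBP binds, or an Initiator.

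The sequences below come from 6 members of high signal that carried an Sp/KLF box within 50 bp of the summit, and from 2 of high signal that carried a DRE, with the box or DRE in capitals. They show the sequence behind the motif counts given further on. Each is the 101 bp centred on the summit, read 5′ to 3′ on the strand of the gene with the nearest start site, from Release 6 of the genome, which dm6 shares.
fng, chr3L:20949908-20950008, minus strand: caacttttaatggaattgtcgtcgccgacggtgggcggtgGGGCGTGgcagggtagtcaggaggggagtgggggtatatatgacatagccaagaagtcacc
CG1927, chr3L:1968162-1968262, minus strand: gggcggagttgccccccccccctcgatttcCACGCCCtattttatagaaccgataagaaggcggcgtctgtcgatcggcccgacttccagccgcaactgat
Tlk, chrX:3772508-3772608, plus strand: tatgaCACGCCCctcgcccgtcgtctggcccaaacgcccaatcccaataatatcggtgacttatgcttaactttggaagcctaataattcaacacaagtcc
Dsor1, chrX:9247527-9247627, plus strand: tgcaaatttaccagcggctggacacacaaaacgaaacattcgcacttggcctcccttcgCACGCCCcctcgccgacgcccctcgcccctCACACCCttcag
drm, chr2L:3538697-3538797, plus strand: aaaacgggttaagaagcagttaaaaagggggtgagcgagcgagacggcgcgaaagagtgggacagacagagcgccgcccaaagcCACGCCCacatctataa
Pka-C3, chr3L:15953046-15953146, minus strand: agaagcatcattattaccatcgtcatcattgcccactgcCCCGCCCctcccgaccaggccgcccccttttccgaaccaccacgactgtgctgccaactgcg
CG9992, chrX:16384977-16385077, minus strand: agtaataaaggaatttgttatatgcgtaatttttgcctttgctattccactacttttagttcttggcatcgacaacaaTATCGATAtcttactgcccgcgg
Axs, chrX:16683916-16684016, minus strand: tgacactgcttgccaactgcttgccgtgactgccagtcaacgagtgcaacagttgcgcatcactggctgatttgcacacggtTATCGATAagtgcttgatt
In these 8 windows the first base in capitals lay between 45 bp before and 34 bp after the summit. The box of fng, a glycosyltransferase that modifies Notch, was read on the opposite strand, and the window of Dsor1, the fly MEK kinase, held a pair of boxes.

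The authors' signal for these peaks was alike in both replicates at some promoters and uneven at others. At fng the signal was 39.3 in replicate 1, 37.2 in replicate 3 and 79.6 in the pooled list. At Dsor1 it was 43.1, 39.3 and 76.3, in the same order. At Tlk, a kinase that acts on chromatin assembly factors, it was 37.1, 34.9 and 78.0. CG1927 differed between the replicates, with 61.5 in replicate 1, where the peak ranked 1386, and 15.7 in replicate 3, where it ranked 19328. At drm, a zinc finger gene of the odd-skipped family, the signal was 55.1 in replicate 1 and 24.8 in replicate 3. Pka-C3, a catalytic subunit of protein kinase A, had 41.9 and 29.9. The DRE peaks of CG9992 and of Axs, which encodes a membrane protein around the meiotic spindle, had 40.5 and 47.0 in replicate 1 and 37.8 and 32.0 in replicate 3. Of these 8 members, CG1927 and drm had the most uneven pairs of values.

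Signal and rank chose the members, so their levels are given as a description. Their pooled signal ran from 21.8 to 81.3 with a median of 48.3, against 81.4 to 1017 and a median of 120 at IDR promoter peaks. The unreproduced promoter peaks had a median of 28.1 and the reproduced peaks away from promoters one of 40.0. In single replicates the members had median signals of 25.4 in replicate 1 and 21.9 in replicate 3. Across members, the signals of the replicates followed each other less closely than at IDR promoter peaks: Spearman's rho was 0.245 over 2596 members and 0.619 over the 1225 IDR promoter peaks matched in both replicates. The members span a narrower range of signal by rule, and all points come from the same pair of libraries. The rule limited the distance of the pooled summit to those of the replicates to 200 bp. Within this limit the median distance was 18 bp to the replicate 1 summit and 23 bp to the replicate 3 summit, and 1268 members (48.8%) had both within 50 bp.

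**Figure D1:**
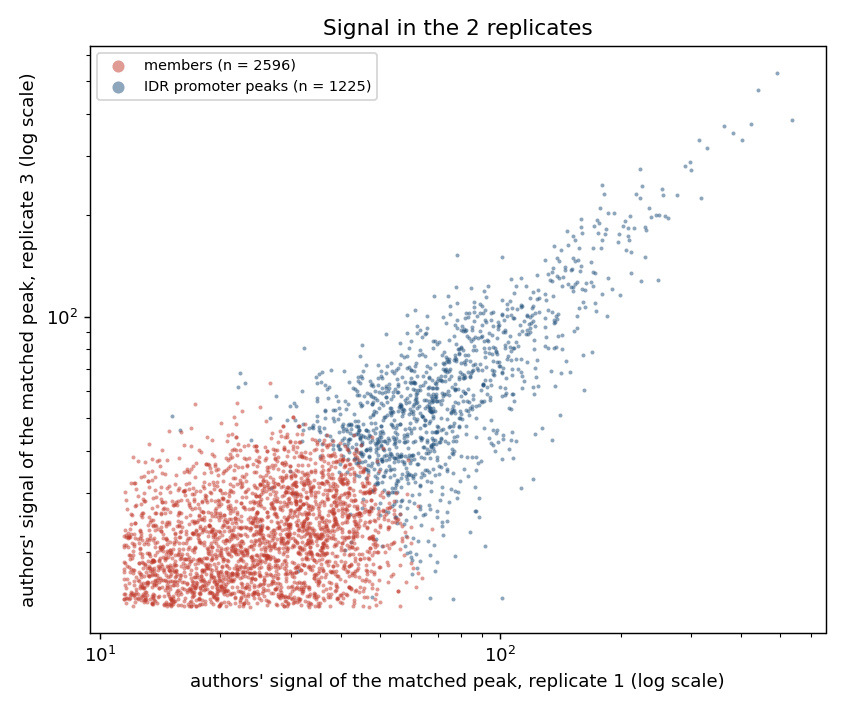
Authors' signal of the matched peak in replicate 1 and in replicate 3, both on log scales, with 1 point per peak. The 2596 members (red) fill the low corner, and the 1225 matched IDR promoter peaks (blue) extend along the diagonal above them.

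The deposited q values of the members were mixed. Their −log10 q had a median of 1.03 in members, and 1076 of them (41.4%) reached 1.3, the −log10 of a q of about 0.05. Of the unreproduced promoter peaks 129 of 3486 (3.70%) reached it. Only 2 members were among the 2451 strongest peaks of both replicates, the number of IDR peaks, while 133 were among them in replicate 1 alone, 143 in replicate 3 alone and 2318 in neither. Some replicate summits served more than 1 member, and 149 members shared one with a stronger member. The lowest 2 members were a second summit near Mcm5, with a pooled signal of 21.9, and one near CG32365, with 21.8.

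The limits of the set cut through a continuous range. The strongest members were at NTPase, with a pooled signal of 81.29, and at eg, which encodes a nuclear receptor-type zinc finger protein, with 81.27. The weakest IDR promoter peaks were at Bgb, with 81.46, and at hid, a cell death gene, with 81.44. Among reproduced sub-threshold summits, 96 lay 451 to 500 bp from a start site, inside the limit, and 106 lay 501 to 550 bp away, outside it. Likewise 299 promoter summits had their farther replicate summit 151 to 200 bp away, and 300 had it 201 to 250 bp away. At promoters 42.7% of the sub-threshold peaks were matched in both replicates, against 33.1% of 20985 away from promoters.

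The 20 strongest members lay at genes of various known roles and at several named only by a CG number. TFIID, the complex that recognises core promoters, was represented by Taf2 and Taf4. At Taf4 the signal was 31.5 in replicate 1 and 42.3 in replicate 3. At the summit shared by Taf2 and the calpain gene CalpB it was 51.0 and 26.5. The histone methyltransferase gene NSD had 38.9 and 37.3, nearly level. Sur-8, a scaffold of Ras signalling, had 30.3 and 50.3, and RpS26, a ribosomal protein gene, had 43.2 and 44.6. The most uneven of the 20 was NTPase, with 59.9 in replicate 1 and 18.5 in replicate 3, where it ranked 12649. CG3511, which shared its summit with Fcp1, the phosphatase of the RNA polymerase II tail, leaned the other way, with 26.7 and 63.5. The window of this summit held an Sp/KLF box. Moe, which encodes the actin and membrane linker moesin, had 56.3 and 20.4, and Cipc 52.2 and 26.9. Of the 20, only NTPase also had an IDR summit within 500 bp of one of its start sites.

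At the main setting, member summits lay upstream of the nearest start site more often than those of unreproduced promoter peaks. Their median distance from it in either direction was 121 bp, against 167 bp at unreproduced and 120 bp at IDR promoter peaks. The rule limited this distance to 500 bp in each class. The median summit lay 72 bp upstream, against 106 bp upstream at IDR promoter peaks and 27 bp upstream at unreproduced ones. Of the members 69.9% had their summit upstream of the nearest start, against 83.1% of IDR promoter peaks (Fisher's exact test, adjusted exact p = 1.84e-18) and 56.3% of unreproduced promoter peaks (adjusted exact p = 7.68e-27). Summits within 100 bp of the start made up 43.5% of members, 40.3% of IDR promoter peaks (adjusted exact p = 0.0592) and 35.2% of unreproduced promoter peaks (adjusted exact p = 5.79e-11). Restricting the classes to a −log10 q of at least 1.3 turned this last difference round, with a log2 odds ratio of -0.76 (adjusted exact p = 0.0269) in place of 0.50, and requiring a match in replicate 3 alone gave -0.13 (adjusted exact p = 0.105). These tests treat peaks as units and carry no spread between embryos.

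**Figure D2:**
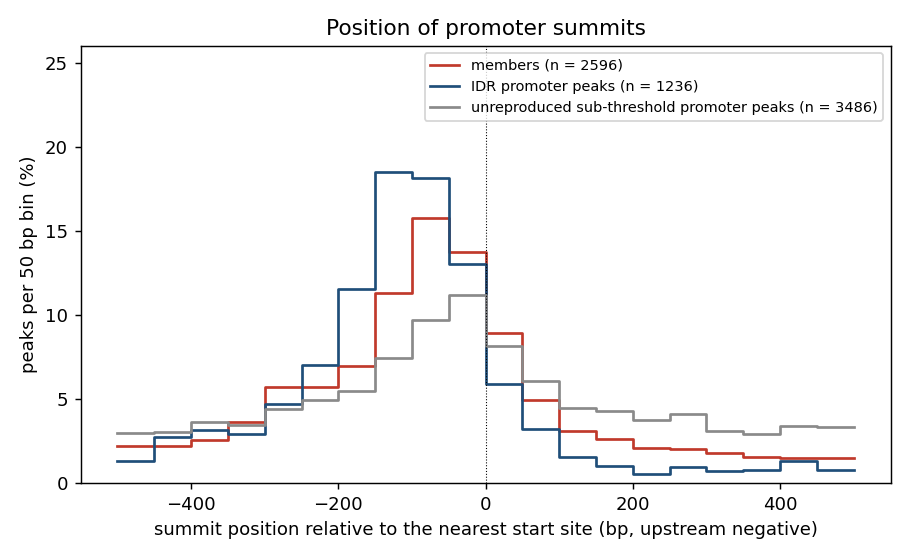
Share of peaks per 50 bp bin against the position of the summit relative to the nearest protein-coding start site, upstream negative, for members (red), IDR promoter peaks (blue) and unreproduced sub-threshold promoter peaks (grey). Members peak at 15.8% between 100 and 50 bp upstream, between the sharper IDR curve and the flatter unreproduced one.

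Divergent promoters, where genes on both strands start near each other, followed the same order. Start sites of genes on both strands lay within 500 bp of 25.7% of member summits, against 39.6% of IDR promoter summits (adjusted exact p = 1.04e-17) and 14.6% of unreproduced ones (adjusted exact p = 7.68e-27). At least 2 genes started there for 27.9% of members, 41.1% of IDR promoter peaks (adjusted exact p = 1.09e-15) and 16.5% of unreproduced promoter peaks (adjusted exact p = 1.9e-26). Among peaks with a −log10 q of at least 1.3, where 129 unreproduced ones were left, these differences from the unreproduced peaks and that of upstream summits did not pass, with log2 odds ratios of 0.56 (adjusted exact p = 0.144), 0.38 (adjusted exact p = 0.204) and 0.43 (adjusted exact p = 0.204). The peroxin genes Pex14 and Pex16, which act in peroxisome assembly, shared 1 member in this way, with a signal of 31.7 in replicate 1 and 33.1 in replicate 3. The summit at CCT3, a subunit of the CCT chaperonin, also served CG10324. Each shared summit counts for every gene it touches, so genes are not independent units.

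By chromosome, members differed from IDR promoter peaks and not measurably from unreproduced ones. The X held 467 members (18.0%), against 175 IDR promoter peaks (14.2%, adjusted exact p = 0.0183), and the small chromosome 4 held 32 members (1.23%) against 5 (0.405%, adjusted exact p = 0.0386). Arm 3R held 23.2% of members and 26.7% of IDR promoter peaks (adjusted exact p = 0.0389). Against the unreproduced promoter peaks no arm passed, with 18.0% on the X in each class and an adjusted exact p of 1 on every arm, and the smallest unadjusted exact p was 0.324. The chromosome 4, 3R and X differences did not pass at every setting. Among genes, 29 of 80 on chromosome 4 (36.3%) had a member and 5 (6.25%) an IDR summit. On the X 516 of 2196 genes (23.5%) had a member and 201 (9.15%) an IDR summit, while on 2L the shares were 18.3% and 12.3%.

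In all, 2857 of 13945 protein-coding genes (20.5%) had a member within 500 bp of a start site. An IDR summit there was found at 1678 genes (12.0%), and either kind at 4374 genes (31.4%). Both kinds occurred at 161 genes, 155 of which (96.3%) have several start sites. Of the 2696 genes with a member and no IDR summit, 40.1% have several, and of all genes 26.5%. By rule a member overlaps no IDR peak, and 94.4% of the genes with a member had no IDR summit. The share was also taken over genes without an IDR summit, where it was 22.0% of 12267. The gene lists that follow are described by their counts beside these shares, with no test. Without replicate 3, where a match in replicate 1 sufficed, the share of all genes with a member was 33.7%, without replicate 1 it was 25.6%, and with each summit given only to the gene of its nearest start site it was 16.3%.

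**Figure D3:**
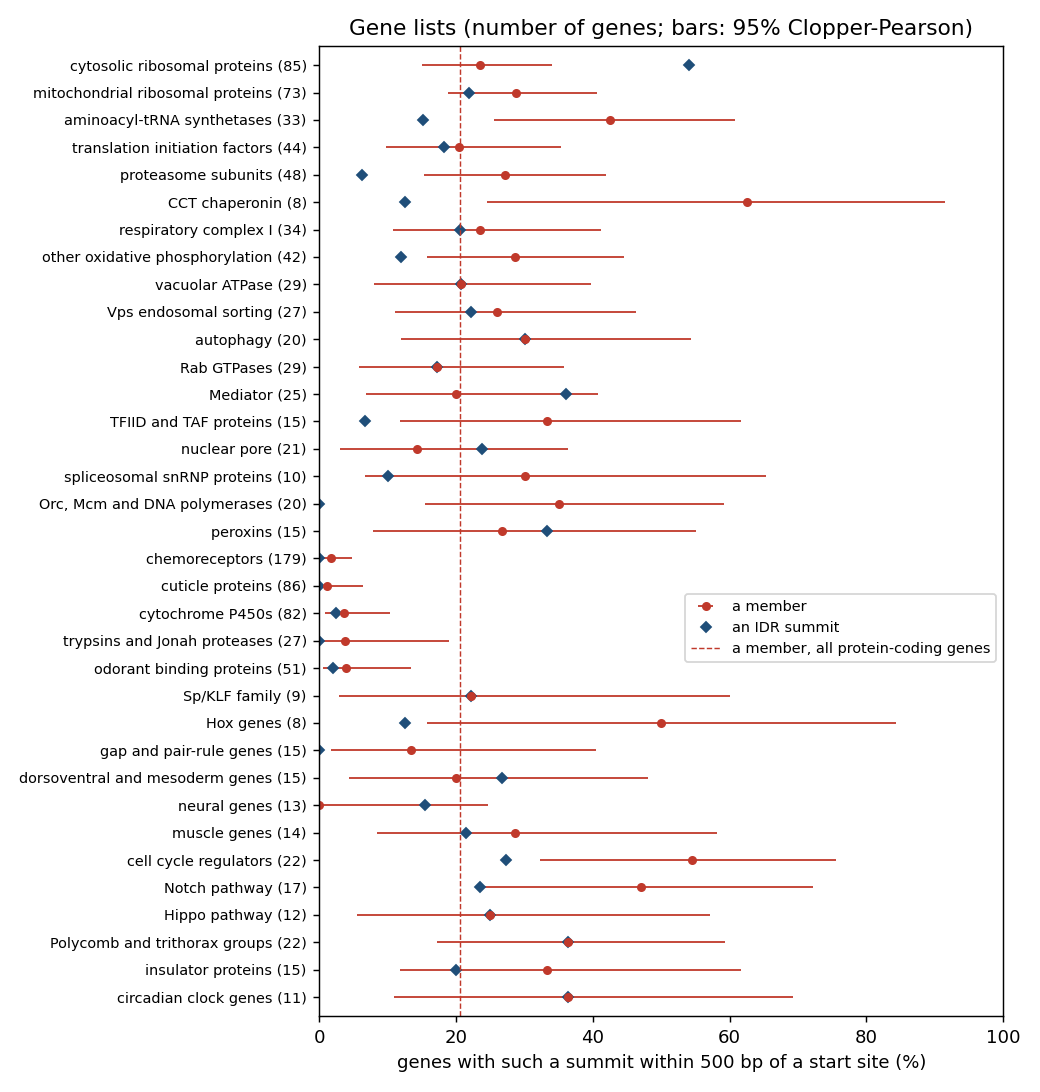
Share of the genes of each list with a member (red, with 95% Clopper-Pearson intervals) and with an IDR summit (blue diamonds) within 500 bp of a start site. The dashed line marks the 20.5% of all protein-coding genes with a member. The 5 lists of chemoreceptor, cuticle, P450, protease and odorant binding genes lie below it. So do the lists of neural, gap and pair-rule, nuclear pore, Rab, Mediator, and dorsoventral and mesoderm genes, and narrowly that of translation initiation factors.

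Genes of translation carried members at about the share of all genes or above it. Of 33 aminoacyl-tRNA synthetase genes, whose enzymes charge tRNAs, 14 had a member (42.4%) and 5 an IDR summit. ValRS had a signal of 45.6 in replicate 1 and 35.1 in replicate 3, and AsnRS 40.0 and 33.9. Of 85 cytosolic ribosomal protein genes 20 had a member (23.5%), while 46 had an IDR summit (54.1%). Over the 39 of them without an IDR summit, 18 had a member (46.2%, against 22.0% of all such genes). RpL37A had 47.4 in replicate 1 and 30.2 in replicate 3, and RpS7 had 38.8 and 35.7. The 73 mitochondrial ribosomal protein genes had members at 21 (28.8%), with mRpL47 at 58.7 and 22.1. Translation initiation factors had members at 9 of 44 genes (20.5%), among them eIF3a, with 58.3 and 16.3, and the cap-binding eIF4E1, with 22.5 and 31.1. Over genes without an IDR summit, members lay at 14 of 28 synthetase genes, 21 of 57 mitochondrial ribosomal protein genes (36.8%) and 9 of 36 initiation factor genes. With each summit given only to the nearest start site, 12 mitochondrial ribosomal protein genes (16.4%) had one, against 16.3% of all genes. Without replicate 3 the counts were 33 for this list (45.2%), 33 for cytosolic ribosomal proteins (38.8%) and 17 for initiation factors (38.6%), against 33.7% of all genes.

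Protein folding, turnover and energy genes gave like counts. Of the 8 CCT chaperonin genes, whose products fold actin and tubulin, 5 had a member, and 1 had an IDR summit. CCT3 had 48.7 in replicate 1 and 30.8 in replicate 3, and CCT7 had 38.5 and 24.9. Proteasome subunit genes had members at 13 of 48 (27.1%), including Rpt5, an ATPase of the regulatory particle, with 53.5 and 24.5, and 3 had an IDR summit. Complex I of the respiratory chain had members at 8 of 34 genes (23.5%), such as ND-23 with 53.0 and 27.2. The other oxidative phosphorylation genes had members at 12 of 42 (28.6%), such as COX7C with 41.3 and 25.6. The lists of vacuolar ATPase, Vps, autophagy, Rab and peroxin genes had members at 6 of 29, 7 of 27, 6 of 20, 5 of 29 and 4 of 15 genes. In this order the shares were 20.7%, 25.9%, 30.0%, 17.2% and 26.7%, against 20.5% of all genes. Atg8a, the autophagosome marker, had 40.9 and 35.9, and Rab5, the early endosome GTPase, had 32.0 and 38.5. Without replicate 3 members lay at 33.7% of all genes. They then lay at 24 proteasome (50%), 15 complex I (44.1%) and 21 other oxidative phosphorylation genes (50%). In the same setting they lay at 14 vacuolar ATPase (48.3%), 11 Vps (40.7%) and 11 Rab genes (37.9%). With the nearest start site only they lay at 8 proteasome (16.7%) and 5 complex I genes (14.7%), against 16.3% of all genes. They then lay at 4 Vps (14.8%) and 3 autophagy genes (15%). Complex I also had members at 5 genes (14.7%) with matches within 100 bp or promoters of 250 bp, against 16.6% and 15.3% of all genes. With a −log10 q of at least 1.3, 2 vacuolar ATPase genes had a member (6.9%, against 10.1% of all genes).

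Among genes of the nucleus, more replication and cell cycle genes had a member than an IDR summit. The same held for all protein-coding genes, at 20.5% and 12.0%. Of 20 Orc, Mcm and DNA polymerase genes, 7 had a member (35.0%) and 0 an IDR summit, and 10 had an unreproduced one. Mcm2 and Mcm5, subunits of the replicative helicase, had 41.0 and 62.4 in replicate 1 and 36.3 and 27.5 in replicate 3. Of 22 cell cycle regulators 12 had a member (54.5%) and 6 an IDR summit. Cdk1, the mitotic kinase, had 33.7 in replicate 1 and 30.9 in replicate 3, and E2f1 36.0 and 21.3. The phosphatase gene stg had 41.5 and 24.6 at its member, and Dp, the partner of E2f, 46.2 and 18.2, and both also had an IDR summit. Of 15 TAF genes 5 had a member (33.3%) and 1 an IDR summit. Mediator genes had members at 5 of 25 and IDR summits at 9, and nuclear pore genes had members at 3 of 21 and IDR summits at 5. Spliceosomal snRNP genes had members at 3 of 10, which were SmD1, SmD2 and SmD3. Without replicate 3 the counts were 15 for Orc, Mcm and DNA polymerase genes (75%) and 9 for Mediator (36%), against 33.7% of all genes. Nuclear pore genes then had 7 (33.3%) and snRNP genes 7 (70%). Without replicate 1 Mediator had 8 (32%, against 25.6% of all genes). With the nearest start site only, 1 snRNP gene had a member (10%, against 16.3%).

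Chromatin and signalling genes were covered by both kinds of peak. Members lay at 8 of 22 Polycomb and trithorax group genes (36.4%, against 20.5% of all genes), and 8 also was the number with an IDR summit. The remodeller gene brm had 32.4 in replicate 1 and 38.3 in replicate 3 at its member, and an IDR summit of pooled signal 270 elsewhere. The gene phol, which encodes a DNA-binding Polycomb group protein, had 30.9 and 24.6. Su(z)2 had 56.1 in replicate 1 and 13.8 in replicate 3, among the most uneven pairs named. Insulator protein genes had members at 5 of 15, with su(Hw) at 20.2 and 30.0. Notch pathway genes had members at 8 of the 17 matched (47.1%), which besides fng included O-fut1, with 30.8 and 27.7, and the coactivator mam, with 4 members. Hippo pathway genes had members at 3 of 12, the kinase genes hpo and wts and the activator mats, with hpo at 47.4 and 27.1. Of 11 circadian clock genes 4 had a member, and 3 of these, dco, Pdp1 and sgg, also had an IDR summit. Without replicate 1 the clock genes had members at 7 (63.6%, against 25.6% of all genes). With promoters of 250 bp 1 clock gene had a member (9.09%, against 15.3% of all genes). With matches within 100 bp 2 had one (18.2%, against 16.6%). Without replicate 3 the Hippo genes had them at 6 (50%, against 33.7%).

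Developmental and tissue-specific genes ranged from many to none. Of the 8 Hox genes, the regulators of segment identity, 4 had a member (50%, against 20.5% of all genes) and lab alone an IDR summit. With a −log10 q of at least 1.3, 1 Hox gene had a member (12.5%, against 10.1% of all genes). With promoters of 250 bp, 2 had one (25%, against 15.3%). Dfd had 45.8 in replicate 1 and 24.0 in replicate 3, and pb had 22.0 in both. The signals were lower at abd-A, with 22.4 and 14.4, and at Antp, with 14.6 and 18.9. Of the 9 Sp/KLF genes, Spps, a Polycomb-associated factor, had 28.7 and 31.5, and luna had 27.4 and 15.6, while CG3065 itself and cbt had IDR summits of pooled signal 114 and 277. At CG3065, reads of the gene itself and of any copy of its promoter in the transgene cannot be told apart. Gap and pair-rule genes had members at 2 of 15, the repressor genes hry and gt. Dorsoventral and mesoderm genes had members at 3 of 15 (Tl, rho and Mef2), muscle genes at 4 of 14 (among them Tm1, with 47.1 and 26.5), and neural genes at 0 of 13, which allows a share of up to 24.7% by the Clopper-Pearson interval. Without replicate 3 members lay at 8 gap and pair-rule (53.3%), 7 muscle (50%), 4 Sp/KLF (44.4%) and 2 neural genes (15.4%), against 33.7% of all genes. Without replicate 1 they lay at 5 dorsoventral and mesoderm genes (33.3%, against 25.6%). With matches within 100 bp or promoters of 250 bp, 1 muscle gene had a member (7.14%, against 16.6% and 15.3% of all genes).

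Genes of adult senses, cuticle, cytochrome P450 enzymes and secreted proteases carried few members. They lay at 3 of 179 chemoreceptor genes (1.68%), 1 of 86 cuticle protein genes (1.16%), 3 of 82 cytochrome P450 genes (3.66%), 1 of 27 trypsin and Jonah protease genes (3.70%) and 2 of 51 odorant binding protein genes (3.92%). The upper limits of the intervals were 4.82%, 6.31% and 10.3% for the first 3 lists, under the 20.5% of all genes. Without replicate 1 the counts were 10 chemoreceptor (5.59%), 8 P450 (9.76%) and 6 odorant binding protein genes (11.8%), against 25.6% of all genes. Without replicate 3 they were 6 chemoreceptor (3.35%), 4 cuticle (4.65%), 12 P450 (14.6%), 2 protease (7.41%) and 4 odorant binding protein genes (7.84%), against 33.7%. The unreproduced peaks touched more of them, with 13 chemoreceptor, 7 cuticle and 17 P450 genes, beside 24.5% of all genes. The members in these lists were weak in part, as at the taste receptor gene Gr39a, with 16.7 in replicate 1 and 13.8 in replicate 3. Cpr72Eb, the cuticle gene, had 27.1 and 32.2.

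The sequence under the summits was not used to choose the members, and its motifs were tested. The rule placed each summit near a start site, and the flanking windows used below lie farther off on average. Their comparison therefore cannot set members apart from promoters in general. The Sp/KLF box was searched as the words CACACCC or CACGCCC or CCCACCC or CCCGCCC on either strand, the DRE as TATCGATA, motif 1 as GGTCACAC, Ohler motif 7 as CATCNCTA, the TATA box as TATAAA, and the CTCF core as AGATGGC or AGAGGGC or AGGTGGC or AGGGGGC. Ohler motif 6 was searched as GTATTTTT or GTATATTT or GTACTTTT or GTACATTT. The other motifs searched were the E-boxes CAGCTG and CACGTG, the Initiator as TCAGTT or TCAGTC, the GAGA element as GAGAGAG, the Zelda word CAGGTAG and the repeat CACACACA, all on both strands, and no word of one motif held a word of another. A box lay within 50 bp of the summit in 140 of 2596 members (5.39%), against 85 (3.27%) of the windows 500 bp to the right (exact McNemar test, adjusted exact p = 0.000498). The DRE was found in 101 members (3.89%) and 9 flanking windows (0.347%, adjusted exact p = 1.02e-19), motif 1 in 3.00% and 0.578% (adjusted exact p = 6.81e-11), and Ohler motif 7 in 2.93% and 0.539% (adjusted exact p = 7.7e-11). Ohler motif 6 was in 5.51% and 2.81% (adjusted exact p = 4.04e-06), the TATA box in 15.8% and 11.1% (adjusted exact p = 3.78e-06), and the CTCF core in 5.12% and 3.47% (adjusted exact p = 0.00693). The E-box CACGTG was less frequent at summits, with 0.732% against 1.58% (log2 odds ratio -1.09, adjusted exact p = 0.0101). It did not pass with promoters of 250 bp (-0.92, adjusted exact p = 0.0968) or 1000 bp (-0.56, adjusted exact p = 0.143), or without replicate 1 (-0.62, adjusted exact p = 0.0819), and the CTCF core did not with promoters of 250 bp (0.47, adjusted exact p = 0.0815) or among peaks with a −log10 q of at least 1.3 (0.65, adjusted exact p = 0.0602). All 19276 start sites were taken the same way as 101 bp windows. They held the box in 1.87%, the DRE in 4.48%, motif 1 in 4.67% and Ohler motif 6 in 4.84%. Ohler motif 7 was in 3.39%, the TATA box in 15.5%, the CTCF core in 3.21% and CACGTG in 1.82%. Over all members, the DRE, motif 1, Ohler motif 7 and CACGTG were less frequent than at all start sites. The box, Ohler motif 6, the TATA box and the CTCF core were more frequent in members. Member windows were centred on summits at a median of 121 bp from the start, so positions were unlike. In members within 100 bp of a start, the DRE was in 7.61%, motif 1 in 5.93% and Ohler motif 7 in 5.40%, above all start sites. There the TATA box was in 12.6%, below all start sites, and the other motifs named kept their direction. Differences from all start sites were not tested.

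The excess of the box over the flank was small and depended on the setting. With the window to the left the log2 odds ratio was 0.39 (adjusted exact p = 0.0648), against 0.74 with the window to the right. Windows of 100 bp either side gave 0.23 (adjusted exact p = 0.141), and promoters taken as 250 bp gave 0.18 (adjusted exact p = 0.584). The flank lies farther from the start site than the summit on average, and GC content was lower at summits, with a median of 38.6% against 44.6%. The word CACGCCC, picked after its counts were seen, stood in 84 member windows (3.24%) and 29 flanking windows (1.12%), with a log2 odds ratio of 1.55 (adjusted exact p = 5.44e-07). CACACCC stood in 23 and 22 windows, CCCACCC in 15 and 20, and CCCGCCC in 31 and 20.

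**Figure D4:**
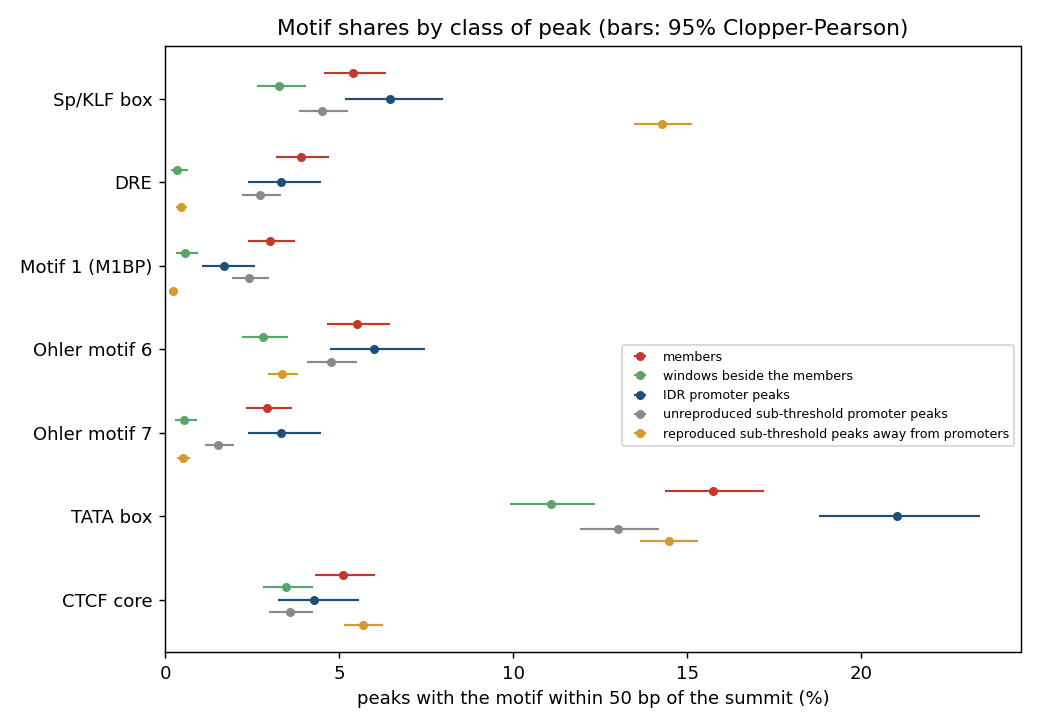
Share of peaks with each of 7 motifs within 50 bp of the summit, with 95% Clopper-Pearson intervals, for members (red), the windows 500 bp to their right (green), IDR promoter peaks (blue), unreproduced sub-threshold promoter peaks (grey) and reproduced sub-threshold peaks away from promoters (yellow). The Sp/KLF box stands at 5.39% in members and 14.3% away from promoters, and the DRE at 3.89% and 0.446%.

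Against the IDR promoter peaks, the TATA box alone passed of 13 motifs, with 15.8% of members and 21.0% of IDR promoter peaks (Fisher's exact test, adjusted exact p = 0.000954). IDR promoter summits were lower in GC, with a median of 34.7%, and the TATA difference passed in neither GC stratum, with log2 odds ratios of -0.29 (adjusted exact p = 0.184) in windows of lower GC and 0.040 (adjusted exact p = 1) in those of higher GC. The box was in 5.39% of members and 6.47% of IDR promoter peaks (log2 odds ratio -0.28, adjusted exact p = 0.394). Within windows of higher GC it was rarer in members (-0.85, adjusted exact p = 0.00517). So was the word CACGCCC, picked after its counts were seen, over all windows, with 3.24% and 5.26% (-0.73, adjusted exact p = 0.0202). One or more of the DRE, motif 1 and Ohler motifs 6 and 7 stood in 14.2% of members and 13.3% of IDR promoter peaks.

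Against the unreproduced promoter peaks, the members held more Ohler motif 7 (2.93% and 1.52%, adjusted exact p = 0.00266), DRE (3.89% and 2.73%, adjusted exact p = 0.0343), TATA box (409 of 2596 members and 454 of 3486 peaks, adjusted exact p = 0.0162) and CTCF core (5.12% and 3.59%, adjusted exact p = 0.0162), and less of the GAGA element GAGAGAG (1.66% and 2.61%, adjusted exact p = 0.0343). The box was in 5.39% and 4.50% (log2 odds ratio 0.27, adjusted exact p = 0.253). Its difference was -0.34 (adjusted exact p = 0.998) in windows of lower GC and 0.64 (adjusted exact p = 0.00419) in those of higher GC. With CACGCCC alone, the word picked after its counts were seen, it was 0.93 (3.24% and 1.72%, adjusted exact p = 0.00133). Without replicate 1 the DRE difference was 0.084 (adjusted exact p = 0.844), and without replicate 3 the TATA difference turned round to -0.095 (adjusted exact p = 0.746), the GAGA difference to 0.018 (adjusted exact p = 1), and the CTCF core gave 0.44 (adjusted exact p = 0.172). Without replicate 1 the CTCF core gave 0.42 (adjusted exact p = 0.0745). Among peaks with a −log10 q of at least 1.3 none of the 5 differences passed, and Ohler motif 7 turned round to -0.90 (adjusted exact p = 0.56) and the DRE to -0.57 (adjusted exact p = 0.608). The DRE, TATA box and GAGA element passed in neither GC stratum, and with promoters of 250 bp they and the CTCF core did not pass either. Ohler motif 7 and the CTCF core passed in windows of higher GC and not in those of lower GC.

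The difference from the reproduced sub-threshold peaks away from promoters was larger, and both sets met the same signal and match rules. The Sp/KLF box was in 5.39% of members, against 14.3% of these 6953 peaks (log2 odds ratio -1.54, adjusted exact p = 2.75e-36), and it stayed lower in members at all 13 other settings, between -2.30 and -1.19. The word CACGCCC was in 3.24% and 10.6%. The DRE was in 3.89% and 0.446% (adjusted exact p = 1.35e-31), motif 1 in 3.00% and 0.216% (adjusted exact p = 1.13e-29), and Ohler motif 7 in 2.93% and 0.503% (adjusted exact p = 3.12e-19). Ohler motif 6 was in 5.51% and 3.37% (adjusted exact p = 9.58e-06), and the E-box CAGCTG in 5.74% and 3.83% (adjusted exact p = 0.000162). Ohler motif 6 did not pass among peaks with a −log10 q of at least 1.3 (adjusted exact p = 0.0856), nor CAGCTG in windows of lower GC (adjusted exact p = 0.147). GC content was close, with medians of 38.6% and 39.6%. The sets differ by rule in distance to a start site, where the DRE and motif 1 are known to lie.

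**Figure D5:**
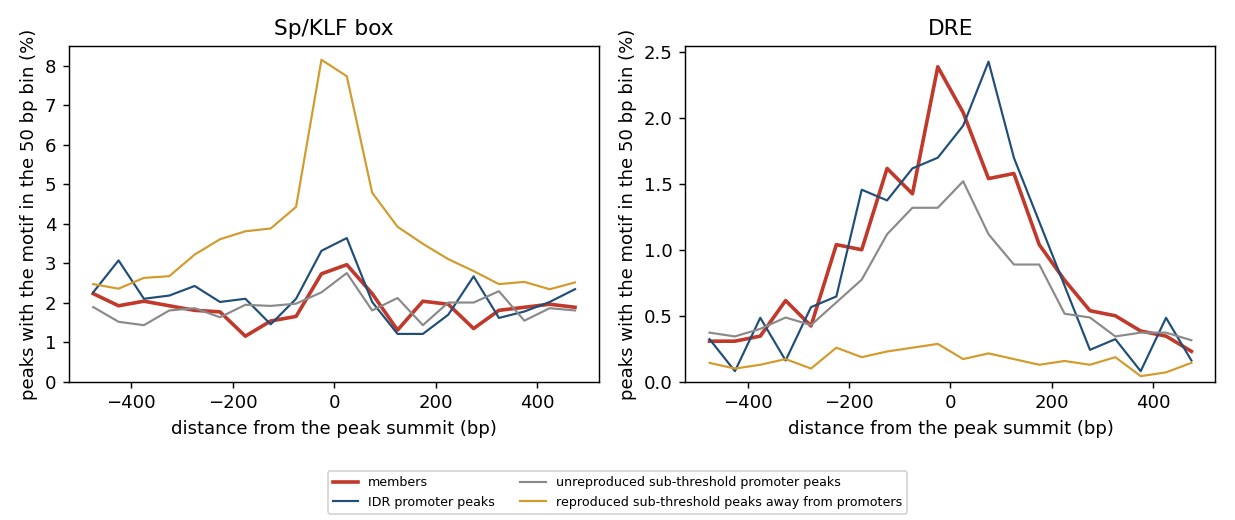
Share of peaks with the Sp/KLF box (left) and the DRE (right) in each 50 bp bin against distance from the summit, for members (red), IDR promoter peaks (blue), unreproduced sub-threshold promoter peaks (grey) and reproduced sub-threshold peaks away from promoters (yellow). In members the box is in 2.97% and the DRE in 2.04% of the first bin to the right of the summit.

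Within the members, the box was more frequent away from the start site, and the DRE, motif 1 and Ohler motif 7 close to it. Of the 1130 members within 100 bp of a start site 2.65% (95% interval 1.80 to 3.77) held the box, against 7.50% (6.21 to 8.97) of the 1466 farther away. The DRE went the other way, with 7.61% close to the start and 1.02% farther off, as did motif 1, with 5.93% and 0.750%, and Ohler motif 7, with 5.40% and 1.02%. Of the 140 members with the box, 6 also held the DRE, motif 1 or Ohler motif 6 or 7. Of all 2596 members, 368 (14.2%) had one of these elements and 2094 (80.7%) had none of the 5 motifs. In 4 equal groups of members, from weakest to strongest, the box was in 5.70%, 4.93%, 5.39% and 5.55%. The DRE was in 2.31%, 2.77%, 5.39% and 5.08% of the same groups, and Ohler motif 7 in 1.69%, 1.85%, 2.93% and 5.24%. Members with Ohler motif 7 had a median pooled signal of 59.2, against 48.0 without it, and members with the box 48.6, against 48.3. These splits within the members were made after the data were seen and were not tested.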

How the data were processed

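Peak lists from 2 biological replicates of anti-GFP ChIP-seq were analysed, in the dm6 coordinates the authors deposited. Sonication gave fragments of 200 to 800 bp, per the labels. The signal and the −log10 q per peak are the authors' deposited values, used to describe and rank peaks within a list. How reads were aligned and peaks called, and the IDR cutoff, were not given in the sources used here. The dm3 lists were not used.

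Summits were matched to start sites of protein-coding transcripts of Ensembl release 115 (BDGP6 version 54). A gene was counted when a summit lay within 500 bp of any of its start sites. Motifs were searched on both strands of 101 bp windows. Members were compared with windows centred 500 bp to the right by the two-sided exact McNemar test, and with other classes by the two-sided Fisher's exact test, with Benjamini-Hochberg adjustment over 13 motifs, 4 position features or 6 arms per comparison. Odds ratios had 0.5 added to each cell. A call is an adjusted p under 0.05. Intervals are 95% Clopper-Pearson. Peaks were the units, so p-values and intervals cover counting error only and carry no spread between replicates. The motif comparison was tested on simulated peaks drawn independently of each other, with planted differences larger than most reported here. How well it calls smaller differences was not tested.

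The members, motifs and 35 gene lists were chosen with earlier results of these data known, and the position and arm tests and the CACGCCC word were added after values were seen. Named are the 20 members of highest signal, up to 4 genes per list (fewer where a gene is not reported here), all Sp/KLF and Hox genes, and genes at the limits of the set. The sequences printed are those of highest signal with the motif, outside arm 2R. One symbol of the Notch list was not matched and is not reported here. Alternatives changed the match distance (100 and 400 bp), promoter window (250 and 1000 bp), IDR exclusion, q limit, replicates, motif window, flank, GC stratum and IDR peak strength. Tests were run with scipy 1.17.1 and tables built with pandas 2.3.3 and numpy 2.4.6 under Python 3.11.15.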

Additional observations from a re-analysis of the deposited data

How the results depend on the processing

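The number of members ran from 1934 to 3515 over match distances, promoter windows, the IDR exclusion and use of each replicate summit once. It was 1076 with a −log10 q of at least 1.3, and between 3482 and 4786 without replicate 1 or replicate 3, since a match in 1 replicate then sufficed. Genes with a member were 1406 under the q limit, and between 3564 and 4699 without a replicate. All values that follow are log2 odds ratios for members over the class named. For the Sp/KLF box against the flank, 0.74 became 0.18 with promoters of 250 bp, 0.42 under the q limit, 0.23 in windows of 100 bp either side and 0.39 with the left flank, none of which passed. Against IDR promoter peaks, -0.28 became -0.85 in windows of higher GC and -0.73 with CACGCCC alone, a word picked after its counts were seen, and both passed. Against unreproduced promoter peaks, 0.27 became 0.47 with promoters of 1000 bp, 0.64 in windows of higher GC and 0.93 with CACGCCC alone, which passed. It was -0.12 with promoters of 250 bp, -0.15 under the q limit and -0.34 in windows of lower GC. In that comparison other motifs turned round too: under the q limit the DRE to -0.57 and Ohler motif 7 to -0.90, in windows of higher GC the TATA box to -0.092, and in windows of lower GC the CTCF core to -0.31. Leaving out a replicate gave -0.095 to 0.34 for the TATA box, -0.74 to 0.018 for the GAGA element, and -0.13 to 1.36 for summits within 100 bp of the start, which was -0.76 under the q limit. The TATA box against IDR promoter peaks became 0.040 in windows of higher GC. Of the values for the box and the called motifs, 214 kept their direction and side of the threshold, 33 kept the direction and lost the call, 5 gained it, and 10 turned round, 7 of which also lost a call. Gene list counts moved by over 1.5 times at 87 of their settings and not at 263. The causes were not tested. Read depth is unknown, so how far more reads would have moved members across the IDR cutoff cannot be given. No paired analysis was possible because there was 1 group.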
